A study of Mus musculus with 4 samples.

Results

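The genes described here are the collagen chain genes, which encode the polypeptide chains of the collagens of the extracellular matrix. They were chosen by name: every gene whose symbol is Col, a number, the letter a and a number, 44 of the 32285 genes in the KPCA.A gene table, matched to the ascites table by Ensembl gene ID. All 44 were among the 30406 genes that the tables of all libraries share. The study profiled single cells of omental tumors and ascites in C57BL6J mice carrying syngeneic KPCA cancer cell lines, whose cell type is given as fallopian tube epithelial cells. There were 3 tumor libraries, 1 for each of the KPCA.A, KPCA.B and KPCA.C lines, made from 4 pooled tumors of mice 8 weeks old, and 1 ascites library from mice 9 weeks old. The line behind the ascites is not named in the labels, which also give no allele, promoter or treatment. Tumor pieces were digested with collagenase type I and DNase I before capture, and messenger RNA was counted with the 10x Genomics 3′ method. Each group is therefore 1 library, with no replicate check and no test: every difference below is between libraries, and every interval is an exact 95% interval that covers counting error only.

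A collagen molecule is a triple helix of chains, made from the same gene or from several. Fibrillar collagens such as types I, III and V form the fibrils of connective tissue, type IV builds the sheet of the basement membrane, type VI forms beaded filaments, and types XII and XIV bind the surface of fibrils. Types XV and XVIII, the multiplexins, lie in or near basement membranes. Fibroblasts are the textbook source of fibrillar collagen, while endothelial and epithelial cells make basement membrane collagen.

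Below, values given 3 at a time follow the order of the lines KPCA.A, then KPCA.B, then KPCA.C, and a value for ascites comes last. The cell filter kept 2648 of 5703, 2586 of 3358 and 3098 of 4110 barcodes of the tumors and 2921 of 3118 of the ascites, where the design text names 5000 cells. A unique molecular identifier (UMI) counts 1 captured transcript, and the cells used had medians of 7910, 7958 and 14660 UMIs, and 2077 in ascites. Barcodes over the mitochondrial limit of the cell filter made up 53.1%, 22.5% and 24.3% of the tumor barcodes and 5.42% of those of ascites. From 0 to 19 barcodes were shared by pairs of libraries, and 22 of the barcodes used occurred in more than 1 library. Leaving those out kept at least 2-fold in each of the 56 collagen ratios of the fibroblast-like, tumor epithelial-like and endothelial-like classes in which it was tried. Cells were classed by 10 marker genes for each of 11 cell types, none of them a collagen. A class needed at least 3 of its markers and 2 times as many as any other class, and cells with rival marker sets were kept apart as mixed cells. Levels are summed UMIs of a class per 1000000 UMIs of that class (CPM). Because the 3′ method counts a transcript once whatever its length, CPM is not divided by length.

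Collagen UMIs of the tumors numbered 155683, 68089 and 345479, which is 3429, 1792 and 3837 CPM over all cells used, against 305 UMIs and 42.4 CPM in ascites. Of the 44 genes, 43 had a UMI in some library, and Col9a1 had none. Library by library 39, 40, 42 and 24 genes had a UMI, and 29, 26, 29 and 3 reached 50 UMIs. The group sizes are 11 fibrillar genes, 6 of the basement membrane network, 6 of the beaded filament, 9 fibril-associated, 3 short-chain, 2 multiplexin, 4 transmembrane and 3 anchoring or other genes.

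**Figure D1:**
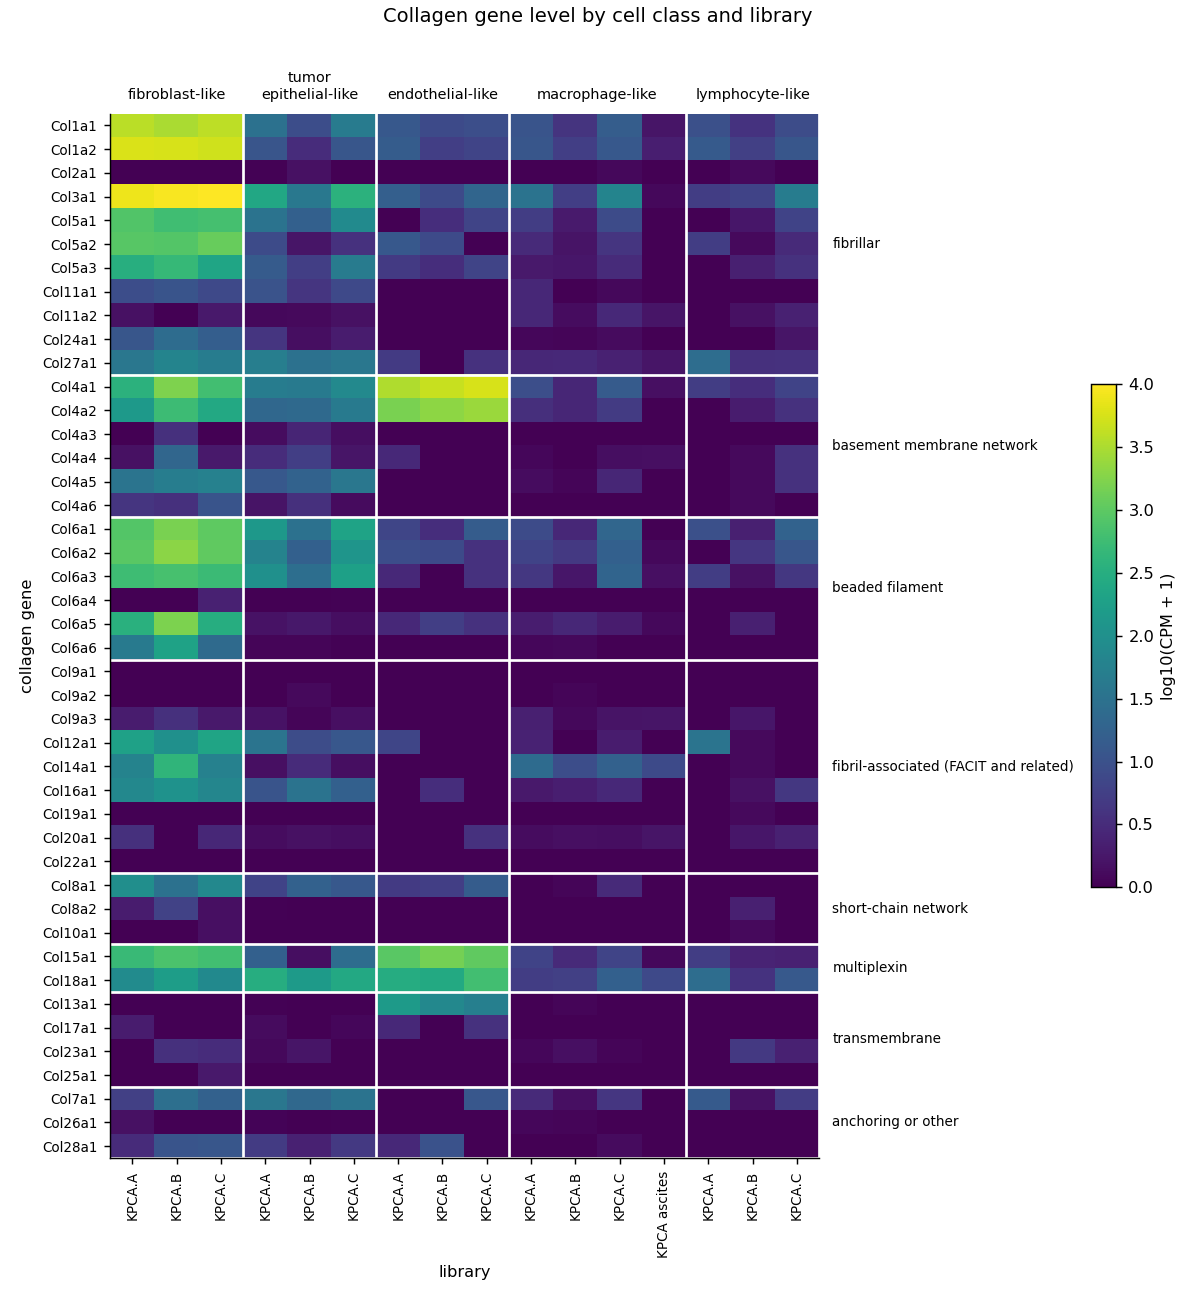
Each cell of the grid is the level of 1 collagen gene, as log10(CPM + 1), in the summed cells of 1 class and library, with genes in rows by collagen group and classes and libraries in columns. Of the classes drawn, fibroblast-like cells hold the highest levels of Col1a1, Col1a2, Col3a1 and Col6a1, and endothelial-like cells those of Col4a1, Col4a2 and Col13a1.

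A small class of cells held much of the collagen RNA. Fibroblast-like cells were 3.55%, 1.2% and 2.00% of the cells used and held 29.7%, 17.3% and 17.5% of the collagen UMIs. Mixed cells with fibroblast and mesothelial markers, which all fell in fibroblast clusters when the cells were clustered, held 14.5%, 42.3% and 12.0%. In KPCA.B they held more than any other class. Only 8, 2 and 3 cells were mesothelial-like and no cluster took that name, so the clusters could not separate these mixed cells from mesothelial cells. Mixed cells with fibroblast and tumor markers held 13.0%, 8.11% and 35.0%, and 467 of the 482 such cells of KPCA.C fell in tumor clusters. Tumor epithelial-like cells held 17.8%, 5.56% and 7.28%, endothelial-like cells 2.13%, 5.52% and 1.06% and mixed cells with fibroblast and pericyte markers 10.4%, 2.72% and 10.1%.

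**Figure D2:**
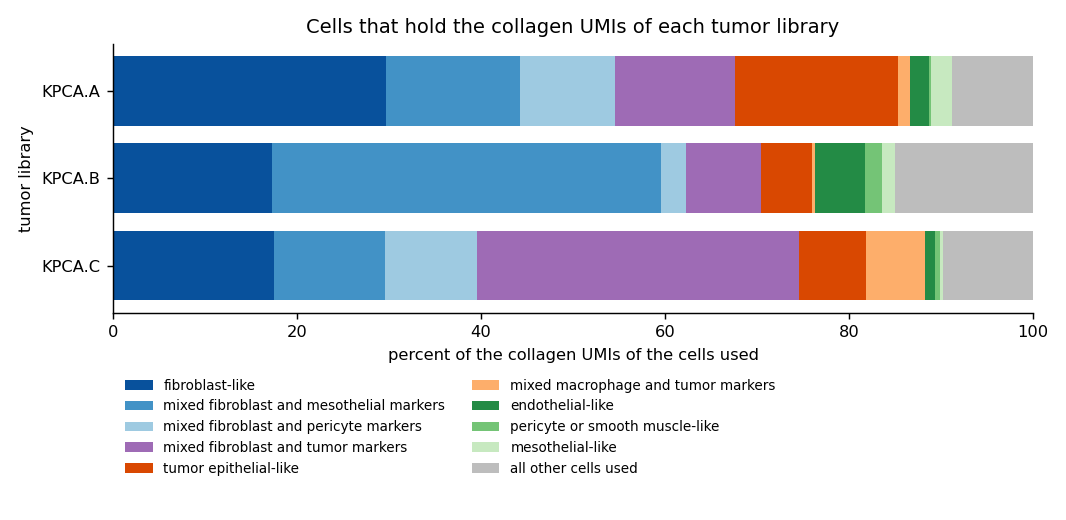
Each bar splits the collagen UMIs of 1 tumor library, in percent, by the class of the cells that hold them. The fibroblast-like share is 29.7% in KPCA.A and 17.3% and 17.5% in KPCA.B and KPCA.C, and the mixed fibroblast and tumor share reaches 35.0% in KPCA.C.

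The class with most UMIs differed by gene. For Col1a2 it was the fibroblast-like class in KPCA.A and KPCA.C, with 43.1% and 32.2% of its UMIs, and the mixed fibroblast and mesothelial cells in KPCA.B, with 54.1%. Col6a5, a beaded filament chain, had the mixed fibroblast and mesothelial cells as its largest class in every tumor library, at 45.6%, 67.3% and 47.0%. Col7a1, which forms the anchoring fibrils under epithelia, came mostly from tumor epithelial-like cells in KPCA.A and KPCA.B, with 60.7% and 52.9%, and from mixed fibroblast and tumor cells in KPCA.C, with 53.3%. Col27a1 followed the same order of classes, with 62.0%, 44.1% and 47.4%, as did Col18a1, the source of the fragment endostatin, with 65.6%, 42.3% and 52.4%. Col14a1 stood apart: its largest class was macrophage-like in KPCA.A, with 42.9%, and in KPCA.C, with 42.5%, but fibroblast-like in KPCA.B, with 45.4%. Col13a1, a transmembrane collagen, had 80 UMIs in KPCA.A, 98.8% of them in endothelial-like cells.

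In fibroblast-like cells collagen made up 2.41%, 2.98% and 2.73% of all UMIs, from 94, 31 and 62 cells. Col3a1 (ENSMUSG00000026043 in the files; chr1:45311538-45349706 in GRCm38) led in every library, at 7842 CPM (7717 to 7969), 9024 CPM (8730.1 to 9325) and 10911 CPM (10774 to 11049). Col1a2 (chr6:4504814-4541544) followed at 5929.8, 5624 and 5179, and Col1a1 (chr11:94936224-94953042) at 3902, 3131 and 4029 CPM. These fibrillar levels lay close together: Col3a1 exceeded its KPCA.A level by 1.39-fold (1.36 to 1.42) in KPCA.C and by 1.15-fold (1.11 to 1.19) in KPCA.B. For Col1a2 the widest gap was 1.15-fold (1.12 to 1.18), KPCA.A over KPCA.C, and for Col1a1 it was 1.29-fold (1.21 to 1.37), KPCA.C over KPCA.B. The type V chains, which set fibril width, were lower, with Col5a1 at 809.6, 595 and 665 CPM and Col5a2 at 921, 843 and 1177 CPM. Col6a3, the longest chain of type VI collagen, was at 575, 691 and 536 CPM and differed by less than 2-fold between any pair of libraries.

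Among the less abundant chains, fibroblast-like cells of KPCA.B stood apart. A gene was counted as different when 2 libraries were at least 2-fold apart and had at least 50 UMIs between them. Of 21 collagen genes measured in KPCA.A and KPCA.B, 1 was higher in KPCA.A and 6 were lower, where 16.4% of all 6022 genes measured differed, 9.05% higher and 7.32% lower. Between KPCA.B and KPCA.C, 7 of 21 were higher in KPCA.B and 2 lower, against 14.3% of all genes measured, 5.96% and 8.38% in those directions. Between KPCA.A and KPCA.C none of 22 differed, against 3.87% of all genes, 1.72% higher in KPCA.A and 2.15% lower. The median log2 ratio of the measured collagen genes, with 5 CPM added, was -0.55 for KPCA.A against KPCA.B, -0.10 for KPCA.A against KPCA.C and 0.40 for KPCA.B against KPCA.C, where the medians over all genes measured were 0.01 in each comparison.

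Most of the genes behind these counts were fibril-associated, beaded filament or basement membrane chains. Col14a1 (chr15:55307750-55520803), a chain on the fibril surface, had 117, 162 and 125 UMIs, or 61.1, 410.1 and 56.3 CPM. KPCA.B exceeded KPCA.A by 6.71-fold (5.26 to 8.59) and KPCA.C by 7.28-fold (5.73 to 9.27). Col6a5 (chr9:105856078-105960643) was at 347, 1605 and 309.9 CPM, higher in KPCA.B by 4.62-fold (4.14 to 5.16) and 5.18-fold (4.64 to 5.78) against KPCA.A and KPCA.C. Its neighbour Col6a6, on the same strand of chromosome 9 with 27917 bases between them, was at 43.8, 202 and 23.4 CPM, a difference of 4.62-fold (3.36 to 6.35) and 8.65-fold (6.02 to 12.5). Col4a1 and Col4a2 were at 376, 1701 and 618 CPM and 138, 542 and 257 CPM, again highest in KPCA.B. Col6a2 was at 950.0, 2002 and 1053 CPM, with KPCA.B above KPCA.A by 2.11-fold (1.94 to 2.29), while its partner chain Col6a1, at 854, 1564 and 1011 CPM, stayed under 2-fold. Col5a3 and Col18a1 of KPCA.B were above those of KPCA.C, by 2.15-fold (1.81 to 2.55) and 2.08-fold (1.54 to 2.77).

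A few genes ran the other way, with KPCA.B lowest. Col8a1, a short-chain collagen of vessel walls, had 177, 12 and 159 UMIs in fibroblast-like cells, or 92.4, 30.4 and 71.6 CPM. KPCA.A exceeded KPCA.B by 3.04-fold (1.70 to 6.0) and KPCA.C by 2.36-fold (1.31 to 4.66) over the same line. Col12a1, like Col14a1 a fibril-surface collagen, was at 191, 101 and 213 CPM, with KPCA.C above KPCA.B by 2.10-fold (1.52 to 2.98). Col15a1, at 517, 732 and 625 CPM, and Col16a1, at 72.6, 109 and 68.0 CPM, differed by less than 2-fold. So did Col27a1, at 38.1, 63.3 and 46.8 CPM, and Col4a5, at 33.4, 48.1 and 56.8 CPM, and Col24a1 between KPCA.A and KPCA.C. All other collagen genes had under 50 UMIs over each pair in these cells.

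The fibroblast markers, all 10 of 10 with a UMI, had a summed level of 4149.8, 10783 and 5681 CPM, most of it Dcn at 2205, 6070 and 3244 CPM. Of the 10, 8 were highest in KPCA.B. Mfap5, at 556, 314 and 535 CPM, and Serpinf1, at 476.1, 461 and 625 CPM, were lowest there, and Pdgfra was nearly level, at 328, 408 and 332 CPM. The class also lay in different clusters: cluster 11, led by Ptgis and Cxcl13, held 63.8%, 22.6% and 45.2% of its cells, and cluster 19, led by Tagln and Serpine2, held 36.2%, 74.2% and 45.2%. The median depth of the cells was 20452.5, 8326 and 35912 UMIs. The part of the markers, clusters and depth in the collagen differences was not tested. In each library few cells carried much of the total: 3 cells held 41.0%, 40.1% and 49.6% of Col14a1 UMIs and 34.7%, 39.3% and 25.5% of Col4a1 UMIs.

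Where the boundary of the class was drawn decided some of these differences. With the mixed fibroblast and mesothelial or pericyte cells counted in, a choice made after seeing the data, Col4a1 and Col4a2 of KPCA.B against KPCA.C turned over, from log2 ratios of 1.46 and 1.08 to -0.20 and -0.49, and Leiden clusters gave -0.19 and -0.42. Also under 2-fold with the mixed cells were Col4a1, Col4a2 and Col6a2 of KPCA.A against KPCA.B, at -0.55, -0.43 and -0.59, and Col5a3 and Col18a1 of KPCA.B against KPCA.C, at 0.36 and 0.72. The medians changed sign as well, to 0.16 for KPCA.A against KPCA.B and -0.26 for KPCA.B against KPCA.C. Over all settings in which they could be computed, Col14a1 kept at least 2-fold with KPCA.B highest, at log2 ratios of -2.75 to -1.47 for KPCA.A against KPCA.B and 1.77 to 2.88 for KPCA.B against KPCA.C. The same held for Col6a5, at -2.21 to -1.37 and 1.84 to 2.39, and Col6a6, at -2.21 to -1.45 and 2.34 to 3.13. Col8a1 stayed at least 2-fold lower in KPCA.B, with 1.52 to 4.16 and -2.30 to -1.21. Leaving out the cells with most collagen was not among these settings, because too few KPCA.B cells remained for a comparison. Whether the differences of Col14a1, Col6a5, Col6a6 and Col8a1 rest on a few cells was therefore not tested.

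The mixed fibroblast and mesothelial cells, 62, 61 and 51 in number, had a different collagen profile within the stroma. They carried 1594, 1432 and 2081 CPM of Col1a1, 3287, 3983 and 3885 of Col1a2 and 3941, 4695 and 6173 of Col3a1, each below the fibroblast-like level of the same library. Col4a1 was at 74.9, 68.4 and 117 CPM and Col15a1 at 87.7, 95.4 and 111 CPM, also below the fibroblast-like cells. Col6a5, unlike these genes, was at 690.1, 1959.6 and 558 CPM, above the fibroblast-like level in every tumor library. Of 22 collagen genes measured, 4 differed between KPCA.A and KPCA.B, 2 in each direction, against 7.11% of all genes measured, 4.9% higher in KPCA.A and 2.22% lower. Between KPCA.B and KPCA.C 5 differed, 3 of them higher in KPCA.B, against 7% of all genes, 2.11% higher and 4.89% lower. Between KPCA.A and KPCA.C 1 gene differed, Col8a1, higher in KPCA.A, against 3.32% of all genes, 1.61% higher and 1.71% lower. Col6a5 was again highest in KPCA.B, by 2.84-fold (2.66 to 3.04) over KPCA.A and 3.51-fold (3.30 to 3.74) over KPCA.C, and so was Col14a1, by 2.25-fold (1.33 to 3.96) and 2.49-fold (1.53 to 4.15). Col12a1 was lowest in KPCA.B, by 2.31-fold (1.48 to 3.69) against KPCA.A and 2.89-fold (1.92 to 4.47) against KPCA.C. The Col8a1 UMIs of KPCA.A, 58 in all, lay in 1 cell, and KPCA.B had none.

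**Figure D3:**
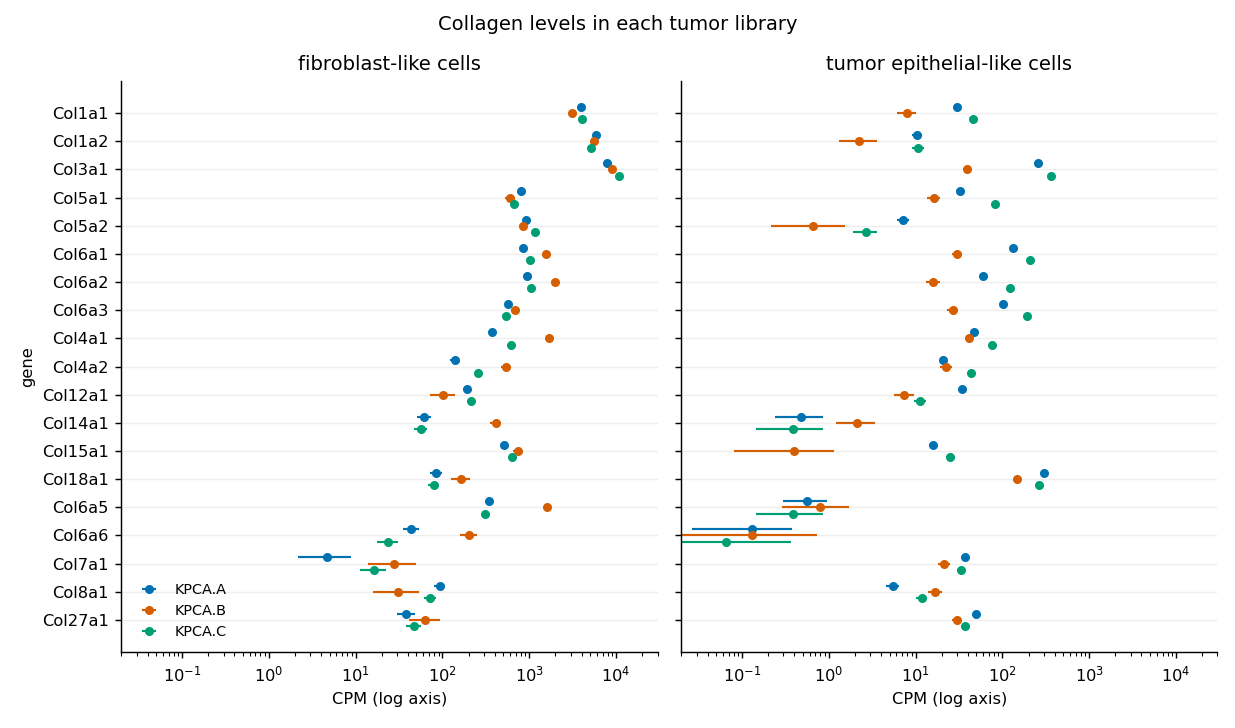
Points are the levels (CPM, log axis) of 19 collagen genes in the summed fibroblast-like cells (left) and tumor epithelial-like cells (right) of each tumor library, with exact 95% counting intervals as bars. On the left KPCA.B lies above the other lines for Col14a1, Col6a5, Col6a6, Col4a1 and Col4a2. On the right it lies below them for Col3a1, Col15a1 and the Col6a1, Col6a2 and Col6a3 genes.

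Tumor epithelial-like cells, 598, 221 and 384 with median depths of 35777.5, 30294 and 37947.5 UMIs, carried 1201, 499 and 1637 CPM of collagen. They were 22.6%, 8.55% and 12.4% of the cells used, all 10 tumor markers had a UMI in each tumor library, and their sum was 6404, 3996 and 3871 CPM. In ascites, which carries the same cell type label as the tumors, 4 cells met these criteria, or 0.137% of the cells used. Col18a1 (chr10:77052178-77166548) led in KPCA.A and KPCA.B and Col3a1 in KPCA.C. Col18a1 was at 305 CPM (298 to 312), 148 CPM (139 to 157) and 261 CPM (253 to 269). Col3a1 was at 254 CPM (247 to 260.2), 39.3 CPM (34.9 to 44) and 366 CPM (357 to 376). The lymphocyte-like cells of the same libraries, which should lack both genes, were taken to stand for free RNA. They had 25.6, 2.79 and 12.2 CPM of Col18a1 and 4.27, 5.34 and 46.2 CPM of Col3a1. In KPCA.A this class was 63 cells with only 35 collagen UMIs over all genes, so its levels are imprecise. Tumor markers summed to 665, 26.4 and 137 CPM in the lymphocyte-like class. A UMI of Col3a1 was seen in 54.5%, 22.6% and 74.2% of tumor cells, against 1.59%, 2.32% and 23.3% of lymphocyte-like cells, whose median depths were 3022, 3551.5 and 4790 UMIs. With every cell thinned to 1000 UMIs the tumor shares were 17.8%, 2.35% and 24.0%, and the lymphocyte shares 0%, 0.234% and 4.82%. Thinning left out 7, 8 and 17 tumor cells and 1, 8 and 0 lymphocyte-like cells that were too shallow. For Col18a1 the thinned tumor shares were 25%, 10.3% and 20.4% (unthinned 89.0%, 64.7% and 74%) and the lymphocyte shares 1.61%, 0% and 0.803% (unthinned 4.76%, 1.04% and 5.62%).

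In these cells KPCA.B was the low line for most collagen genes. Of 23 genes measured, 15 were at least 2-fold above KPCA.B in KPCA.A and 3 below it, against 14.7% of all 11712 genes measured, 7.43% above and 7.26% below. Between KPCA.B and KPCA.C, 1 of 20 was higher in KPCA.B and 12 were lower, against 24.3% of all genes, 14.7% and 9.59% in those directions. Between KPCA.A and KPCA.C 4 of 23 were higher in KPCA.A and 6 lower, against 15.9%, or 10.1% and 5.86% in those directions. The median log2 ratios of the collagen genes, with 5 CPM added, were 0.84, -0.89 and -0.52 for KPCA.A against KPCA.B, KPCA.B against KPCA.C and KPCA.A against KPCA.C, beside -0.05, 0.13 and 0.09 over all genes measured. The lines' tumor cells lay in different clusters. Cluster 2, led by H19 and Miat, held 65.1%, 60.2% and 13.8% of them, and cluster 16, led by Wfdc18 and Prap1, 24.7%, 27.6% and 1.04%. In KPCA.C cluster 7, led by Igfbp3 and Grem1, held 42.4% and cluster 4, led by Atp4a and Apoa1, 27.1%. The part of these clusters in the collagen differences was not tested.

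Among the fibrillar genes Col3a1 exceeded the KPCA.B level by 6.46-fold (5.75 to 7.28) in KPCA.A and by 9.32-fold (8.30 to 10.5) in KPCA.C. Col1a1, at 29.9, 7.91 and 45.8 CPM, had the same order, with 3.78-fold (2.90 to 5.01) and 5.79-fold (4.45 to 7.67). Col5a1, at 32.8, 16.1 and 81.7 CPM, and Col5a3, at 12.9, 4.48 and 44.4 CPM, were highest in KPCA.C, which exceeded KPCA.A by 2.49-fold (2.27 to 2.73) and 3.44-fold (3.0 to 3.95). Col5a2 was highest in KPCA.A, at 7.14, 0.659 and 2.67 CPM, from 165, 5 and 41 UMIs, which is 10.8-fold (4.55 to 33.8) above KPCA.B. With the mixed tumor cells counted in, its log2 ratio fell from 3.44 to 0.75 for KPCA.A against KPCA.B and from 1.42 to 0.12 for KPCA.A against KPCA.C, both under 2-fold. Col24a1 had 3 UMIs in KPCA.B, so its 8.10-fold (2.67 to 40.2) excess in KPCA.A carries a wide interval. Col11a1, at 9.39, 3.16 and 6.50 CPM, and Col27a1, at 49.9, 30.2 and 36.9 CPM, were both highest in KPCA.A. The Col27a1 levels lay within 2-fold of each other.

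The main beaded filament genes shared 1 order of lines. Col6a1 was at 133, 30.2 and 206 CPM, Col6a2 at 60.3, 15.8 and 122 CPM and Col6a3 at 100.5, 26.6 and 189.9 CPM. KPCA.A exceeded KPCA.B by 4.42-fold (3.86 to 5.07), 3.81-fold (3.16 to 4.63) and 3.77-fold (3.27 to 4.38), and KPCA.C exceeded KPCA.B by 6.82-fold (5.96 to 7.83), 7.72-fold (6.42 to 9.37) and 7.13-fold (6.18 to 8.27). Col6a5 and Col6a6, which separated the fibroblast-like cells, were below 1 CPM in tumor cells of every line.

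The multiplexins differed in how far apart the lines were. Col15a1 had 366, 3 and 385 UMIs in tumor cells, or 15.8, 0.395 and 25 CPM, a ratio of 40.1-fold (13.6 to 195) for KPCA.A and 63.3-fold (21.5 to 308) for KPCA.C over KPCA.B. Col18a1 of KPCA.A exceeded KPCA.B by 2.06-fold (1.94 to 2.20), and KPCA.C lay between them. In the basement membrane group Col4a1, at 46.9, 41.5 and 76.4 CPM, stayed within 2-fold, while Col4a2, at 20.8, 22.3 and 43.4 CPM, and Col4a5, at 11.8, 17.0 and 37.8 CPM, were highest in KPCA.C, by 2.09-fold (1.85 to 2.35) and 3.21-fold (2.77 to 3.72) over KPCA.A. Col7a1, the anchoring fibril chain, was at 37.4, 21.3 and 33.0 CPM.

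A few collagens were highest in KPCA.B tumor cells. Col16a1, a fibril-associated collagen, was at 10.1, 32.0 and 15.7 CPM, 3.16-fold (2.63 to 3.8) above KPCA.A and 2.04-fold (1.70 to 2.45) above KPCA.C. Col8a1 was at 5.45, 16.7 and 11.7 CPM, 3.07-fold (2.38 to 3.96) above KPCA.A, the opposite order to the fibroblast-like cells. For Col4a4 KPCA.B exceeded KPCA.A by 2.03-fold (1.28 to 3.19). Col12a1 was highest in KPCA.A, at 34.1, 7.38 and 11.3 CPM, but the lymphocyte-like cells of KPCA.A had 34.1 CPM from 8 UMIs in 1 cell.

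The mixed cells bear on these values, because 467 of 482 fibroblast and tumor mixed cells of KPCA.C fell in tumor clusters, more cells than its tumor class holds. With the mixed tumor cells counted in, added after seeing the data, and in every other setting tried, KPCA.B stayed at least 2-fold below the other lines for Col3a1, at log2 ratios of 1.67 to 3.16 for KPCA.A against KPCA.B and -4.21 to -2.57 for KPCA.B against KPCA.C. The same held for Col15a1, at 2.50 to 5.99 and -6.40 to -3.78, Col6a1, at 1.54 to 2.75 and -3.97 to -2.20, and Col6a3, at 1.14 to 2.58 and -4.18 to -2.22. Col1a1 of KPCA.A against KPCA.B ranged from 0.14 to 2.61. Col1a2 was at 10.4, 2.24 and 10.7 CPM and above KPCA.B by 4.66-fold (2.85 to 8.13) in KPCA.A. Its direction turned over when the mixed cells were counted in (log2 ratio -0.54) and in Leiden clusters (-0.84). With the lymphocyte level taken off, Col1a2 of each line was left at the minimum of 3 counts. The log2 ratio of -1.61 then reflects only the UMI totals of the classes. The fibroblast markers summed to 88.8, 145 and 191 CPM in the tumor classes, with a UMI of 10, 9 and 10 of the 10 markers and Mfap5 at 0 in KPCA.B. Tumor cells without a UMI of Dcn, Lum, Dpt or Mfap5, 500, 187 and 237 in number, carried 1042, 469 and 1578 CPM of collagen. The part of fibroblast RNA in the tumor cell levels was not tested.

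Ratios within a library need no scaling between libraries, and they differed between the tumor cells and the fibroblast-like cells. Their denominator is weak in tumor cells: in CPM, Col1a2 there exceeded the lymphocyte level by no more than the value of 3 counts in any line. The ratios were not recomputed with that level taken off. CPM is per UMI, and tumor cells were deeper, with medians of 35777.5, 30294 and 37947.5 UMIs against 3022, 3551.5 and 4790. The part of free RNA in the Col1a2 UMIs of tumor cells was not tested. For each UMI of Col1a2, which joins Col1a1 in type I collagen, fibroblast-like cells held 0.658, 0.557 and 0.778 UMIs of Col1a1. Tumor epithelial-like cells held 2.87 (2.47 to 3.33), 3.53 (2.03 to 6.45) and 4.29 (3.62 to 5.12). Col3a1, whose chains assemble with each other and need no Col1a2, was at 1.32, 1.60 and 2.11 UMIs per Col1a2 UMI in fibroblast-like cells and at 24.3 (21.4 to 27.8), 17.5 (10.8 to 30.5) and 34.3 (29.4 to 40.3) in tumor cells. The intervals of the classes did not overlap within any library. In tumor cells without a UMI of Dcn, Lum, Dpt or Mfap5 the Col3a1 ratio was 34.7, 14.3 and 26.2.

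Counting in the mixed tumor cells lowered these ratios. The log2 difference of tumor from fibroblast-like cells in Col1a1 per Col1a2 went from 2.12, 2.66 and 2.46 to 0.72, 0.27 and 2.03, and that in Col3a1 per Col1a2 from 4.2, 3.45 and 4.03 to 2.50, 0.0062 and 2.71. With them, Col1a1 per Col1a2 was under 2-fold apart in KPCA.A and KPCA.B, and Col3a1 per Col1a2 in KPCA.B. In KPCA.B, Leiden clusters kept 1.43 and 1.5, and the gate at 3 times the markers gave 1.64 for Col3a1 per Col1a2. In KPCA.A 64 and 52 of the 241 Col1a2 UMIs of tumor cells lay in 2 cells. Tumor cells of KPCA.A with an Epcam UMI held 0.690 UMIs of Col1a1 and 4.24 of Col3a1 per UMI of Col1a2, and those without one 7.01 and 62.5. Epcam, an epithelial adhesion gene, was at 311, 531 and 27.3 CPM in tumor cells. Tumor cells with an Epcam UMI, 200, 104 and 13, carried 646, 327 and 858 CPM of collagen and those without one, 398, 117 and 371, carried 1568, 716 and 1698 CPM.

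**Figure D4:**
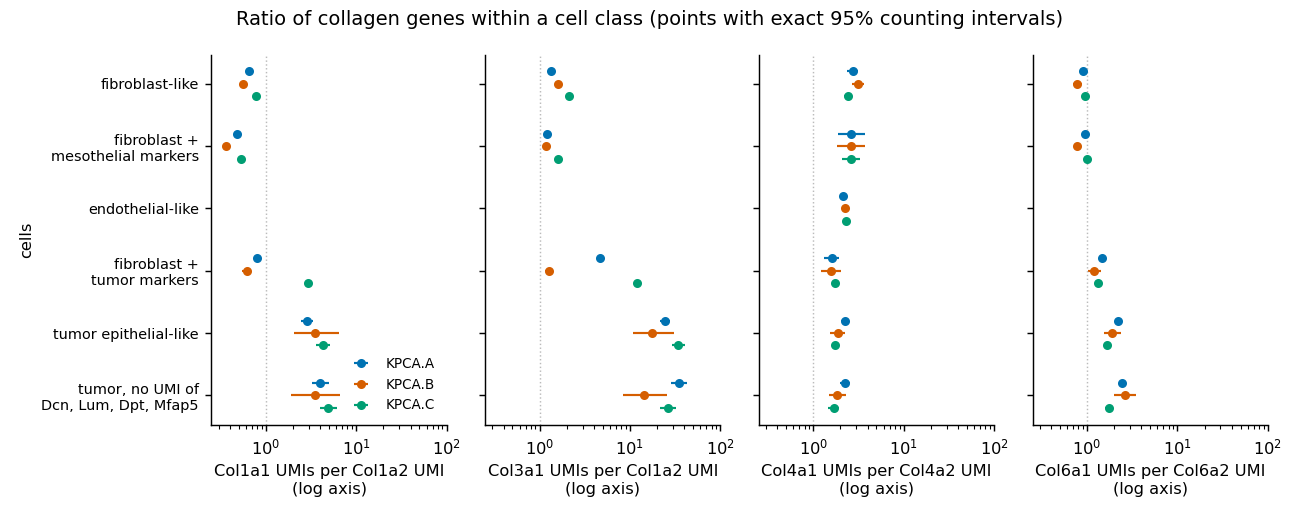
Points are UMIs of 1 collagen gene per UMI of another (log axis) in the summed cells of 6 sets of cells and 3 tumor libraries, with exact 95% counting intervals. Col1a1 and Col3a1 per Col1a2 lie further right in tumor epithelial-like cells than in fibroblast-like cells, while Col4a1 per Col4a2 lies between 1.76 and 3.14 in the fibroblast-like, endothelial-like and tumor epithelial-like cells.

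Sequences before the RefSeq starts of the genes of this contrast are shown because Col3a1 and Col1a2 lay within about 2-fold of each other in fibroblast-like cells and far apart in tumor cells. They are from RefSeq on GRCm38.p6, on the strand of the gene, with motif matches in capitals. For Col1a2 only the stretch of the 250 bases before the RefSeq start that lies outside annotated exons is printed, chr6:4505370-4505492, on the plus strand. The annotations differ here: GENCODE vM21 begins the gene further upstream, at 4504814, so this stretch lies inside the gene span given above and before the RefSeq start at 4505618. It is 59.3% GC with 5 CpG, and the capitals are the GC box letters GGGCGG at 205 and 188 bases before the start. The part of the 250 bases that is not printed holds the CCAAT box letters CCAAT at 109 bases before the start. For Col3a1 the window is chr1:45311288-45311537, on the plus strand, 35.2% GC with 0 CpG, and the capitals are the TATA box letters TATAAA at 117 bases before the start.
Col1a2: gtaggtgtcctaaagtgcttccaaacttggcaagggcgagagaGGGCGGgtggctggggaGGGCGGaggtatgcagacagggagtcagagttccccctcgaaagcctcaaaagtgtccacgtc
Col3a1: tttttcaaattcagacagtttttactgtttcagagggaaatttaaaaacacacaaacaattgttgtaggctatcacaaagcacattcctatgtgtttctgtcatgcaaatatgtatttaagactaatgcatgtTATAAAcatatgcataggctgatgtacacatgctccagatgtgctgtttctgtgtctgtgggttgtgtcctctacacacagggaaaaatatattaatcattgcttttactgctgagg
A window of 250 bases was found for 35 of the 44 genes, 38 windows in all. Searched on both strands, GGGCGG was in 22 of the 38 collagen windows and 32.7% of all 32851 windows, TATAAA in 5 and 12.4%, and CCAAT in 13 and 33.8%. The median GC was 59% in the collagen windows and 52.4% in all windows, and its part in these counts was not tested. A match is only a run of letters. Neighbours on a chromosome also differed: Col3a1 and Col5a2 lie tail to tail with 24614 bases between them, and tumor cells held 35.5 (30.4 to 41.7) and 137 (101 to 192) UMIs of Col3a1 per UMI of Col5a2 in KPCA.A and KPCA.C, against 8.52 and 9.27 in fibroblast-like cells.

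Endothelial-like cells, 86, 49 and 19 in number, had the most basement membrane collagen of the classes with at least 30 cells in KPCA.A and KPCA.B. The pericyte-like cells, 2, 4 and 3 in number, carried 3615, 5742 and 4865 CPM of Col4a1. In endothelial-like cells Col4a1 was at 3348 CPM (3192 to 3509), 4665 CPM (4465 to 4872) and 5779 CPM (5534 to 6033), which is 52.2%, 54.2% and 57.1% of all collagen UMIs of the class. Col4a2 added 1578, 2082 and 2519.5 CPM and Col15a1 944, 1451 and 1064 CPM, with Col18a1 at 297, 272 and 611 CPM. Col13a1 had 79, 32 and 19 UMIs, or 152, 73.2 and 52.5 CPM. Of 5 collagen genes measured in KPCA.A and KPCA.B, 1 differed, Col13a1, above KPCA.B by 2.08-fold (1.36 to 3.25) in KPCA.A, where 4.8% of all genes measured differed, 3.47% upward and 1.32% downward. The median log2 ratio of the 5 was -0.40, and all genes measured had 0.11. With the 3 cells of most collagen left out in each library, chosen after seeing the data, none of the 5 differed and the median was -0.04. KPCA.C had too few cells for a comparison.

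Col4a1 (chr8:11198423-11312826, minus strand) and Col4a2 (chr8:11312805-11449287, plus strand) are transcribed away from each other, and their annotated first exons overlap over 22 bases of 5′ UTR, chr8:11312805-11312826 in GRCm38.p6. The overlap is printed on each gene's strand because the balance of the pair varied least among the 4 ratios plotted above. It is 72.7% GC with 4 CpG. Motif matches are not marked in it, and the Col4a2 strand does hold the GC box letters GGGCGG.
Col4a1: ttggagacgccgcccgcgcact
Col4a2: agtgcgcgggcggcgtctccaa
Endothelial-like cells held 2.12, 2.24 and 2.29 UMIs of Col4a1 per UMI of Col4a2, fibroblast-like cells 2.72, 3.14 and 2.41, and tumor epithelial-like cells 2.25, 1.86 and 1.76. Across single cells of a class the pair had Spearman correlations of 0.73, 0.86 and 0.87 in fibroblast-like cells and 0.49, 0.65 and 0.62 in tumor cells, where the cells of a library share its depth and free RNA. Col1a1 and Col1a2 gave 0.74, 0.84 and 0.82 in fibroblast-like cells but 0.08 and 0.07 in tumor cells of KPCA.A and KPCA.C. In those tumor cells Col1a2, in CPM, exceeded the lymphocyte level by no more than the value of 3 counts. Col6a1 and Col6a2, whose chains form type VI collagen with Col6a3, gave 0.72, 0.71 and 0.65 in fibroblast-like and 0.72, 0.55 and 0.74 in tumor cells. Their UMI ratio was 0.899, 0.781 and 0.960 in fibroblast-like cells and 2.21 (2.07 to 2.36), 1.91 (1.52 to 2.40) and 1.68 (1.59 to 1.78) in tumor cells.

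Macrophage-like cells were numerous in all 4 libraries, with 769, 565 and 1044 cells in the tumors and 1399 in ascites. Their collagen level was 135, 46.2, 227 and 20.4 CPM, and lymphocyte-like cells of the tumors had 149, 41.7 and 148 CPM. Col14a1 was above the lymphocyte level in each tumor. Macrophage-like cells had 136, 65, 231 and 31 UMIs of it, or 24.3 CPM (20.4 to 28.7), 7.79 CPM (6.01 to 9.93), 16.6 CPM (14.6 to 18.9) and 7.03 CPM (4.78 to 9.98). Lymphocyte-like cells had 0, 1 and 0 UMIs in the tumors, which allows up to 12.8 CPM in KPCA.A and 2.04 CPM in KPCA.C (3 counts per library), and endothelial-like cells had 0 in each. A UMI was seen in 12.2%, 6.90%, 12.2% and 2.14% of macrophage-like cells, at median depths of 6302, 12778, 11000.5 and 3035 UMIs, and in 0%, 0.116% and 0% of lymphocyte-like cells. With cells thinned to 1000 UMIs the macrophage shares were 2.64%, 0.717%, 1.16% and 0.787%. None of 62, 854 and 249 thinned lymphocyte-like cells had a UMI, with upper exact binomial limits of 5.78%, 0.431% and 1.47%. No single cell carried the gene: the highest cell had 6, 5 and 7 UMIs in the tumors and 2 in ascites. Fibroblast markers summed to 7.68, 9.71, 32.5 and 1.36 CPM in macrophage-like cells, and their part in the Col14a1 level was not tested. In ascites 8 of the 10 fibroblast markers, Lum among them, were at 0.

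**Figure D5:**
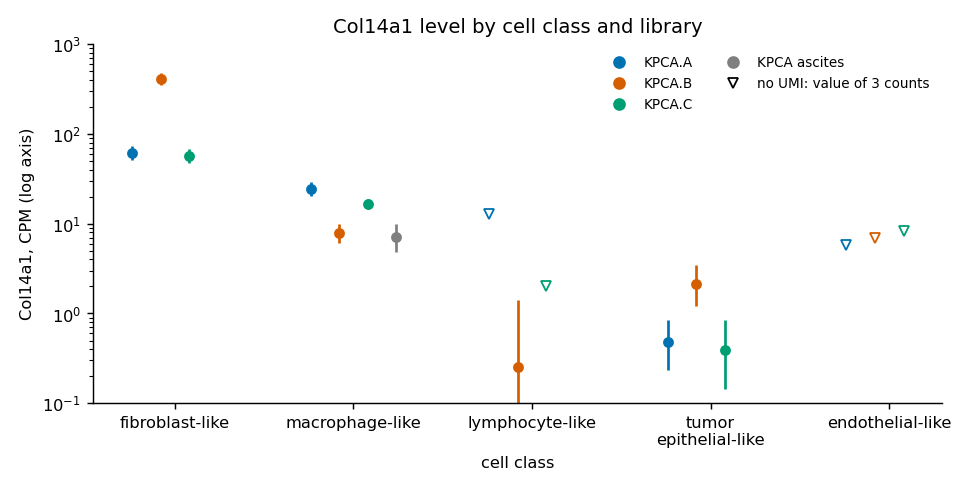
Points are the Col14a1 level (CPM, log axis) in the summed cells of 5 classes and each library, with exact 95% counting intervals, and open triangles mark the value of 3 counts where no UMI was seen. Macrophage-like cells lie between 7.03 and 24.3 CPM, and fibroblast-like cells of KPCA.B are highest at 410.1 CPM.

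Col3a1 in macrophage-like cells did not stand clear of the lymphocyte level in KPCA.B, with 4.44 CPM against 5.34 CPM. In KPCA.A and KPCA.C it was at 32.9 and 62.4 CPM against 4.27 and 46.2 CPM, but 1 cell held 71 of the 184 UMIs in KPCA.A and 286 of the 867 in KPCA.C. The lymphocyte level of KPCA.A comes from a class with 35 collagen UMIs in all. In ascites macrophage-like cells Col3a1 was 0.23 CPM. Col18a1 was at 4.29, 4.80, 15.7 and 6.58 CPM in the same class, beside 25.6, 2.79 and 12.2 CPM in lymphocyte-like cells of the 3 tumors. Of the 305 collagen UMIs in ascites, macrophage-like cells held 90, from 15 of the 44 genes. A pair of cells with fibroblast and mesothelial markers held 83, 1 mesothelial-like cell held 22, and the 4 tumor epithelial-like cells held 8. Ascites had no fibroblast-like class to set beside the tumors. The ascites barcodes begin with letters of another barcode set than those of the tumors, so the capture chemistry may have differed and levels are only given side by side.

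The genes that fold, trim and bind collagen were counted from lists of 18, 14 and 10 genes. Between fibroblast-like cells of KPCA.A and KPCA.B, 4 of 15 folding and hydroxylation genes measured were at least 2-fold higher in KPCA.A and none lower: P4ha1, P4ha2, Plod2 and Crtap, which hydroxylate collagen or belong to the hydroxylating complex. Over all genes measured in that pair 9.05% were higher and 7.32% lower. P4ha1 was at 482, 177 and 471 CPM and Plod2 at 533, 263 and 520.3 CPM. Of 9 genes of propeptide removal and crosslinking 1 was higher and 3 were lower. Lox, a crosslinking oxidase, was higher in KPCA.A, at 789, 367 and 902 CPM. Loxl1 (253, 651 and 392 CPM), Pcolce (148, 534 and 234 CPM) and Tnxb (78.3, 418 and 56.3 CPM) were lower. Serpinh1, the collagen chaperone, was level, at 1922, 1845 and 1855 CPM. Between KPCA.A and KPCA.C none of 15 and none of 10 in these lists differed, against 3.87% of all genes. Of 5 receptor genes measured in KPCA.A and KPCA.B 1 differed: Itga1, a collagen-binding integrin, was lower in KPCA.A, at 19.3, 109 and 44.6 CPM. Of 6 receptor genes measured in KPCA.A and KPCA.C 1 differed, Itga1 again, lower in KPCA.A, against 2.15% of all genes lower there.

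In tumor cells 5 of 16 folding and hydroxylation genes were higher in KPCA.A than KPCA.B and none lower, against 7.43% and 7.26% of all genes measured. Between KPCA.B and KPCA.C 2 of 17 were higher in KPCA.B and 5 lower, against 14.7% and 9.59% of all genes, so the share higher is near that of all genes. Plod2, a lysyl hydroxylase, was at 122, 17.1 and 183 CPM and P4ha2 at 111, 23.5 and 114 CPM, the same order as Col3a1. Serpinh1 ran the other way, at 112, 220.3 and 94.8 CPM. Lox was at 1.13, 1.05 and 24.7 CPM and Mrc2, a receptor that takes up collagen, at 1.04, 1.05 and 18.4 CPM, both highest in KPCA.C. The collagen receptor kinases differed in order, with Ddr1 at 106, 163 and 60.7 CPM and Ddr2 at 54.2, 45.5 and 114 CPM. Of the propeptide and crosslinking genes 2 of 8 were higher and 2 lower in KPCA.A against KPCA.B, beside the same 7.43% and 7.26%.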

How the data were processed

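Single-cell RNA counts came from 3 omental tumor libraries and 1 ascites library. The deposited values are raw counts of UMIs for each gene in each barcode, made by the authors with Cell Ranger 4.0.0 (tumors) and 3.0.2 (ascites) per the file headers. The submitters' processing notes name Cell Ranger 3.1.0 and build mm10, and the labels give 3′ v2 chemistry for all. The cell filter asked for 300 genes, 500 UMIs and no more than 15% mitochondrial UMIs. No doublet caller was run, and the marker gate set aside cells with rival markers. UMIs were summed per class and library over the 30406 shared genes. A pair of libraries was compared with at least 30 cells in each. Levels have exact Poisson intervals, ratios exact conditional (Clopper-Pearson) intervals, and a count of 0 is given as 3 counts. These were computed with Python 3.11.15, NumPy 2.4.6, SciPy 1.17.1 and pandas 2.3.3, on scripts tested on simulated data. Alternatives were the gate, cell filter, UMI minimum, scaling, pseudocount, subtraction of the lymphocyte level, thinning, and Leiden clusters (Scanpy 1.11.5). The genes, lists and markers were chosen with earlier results of these data known. The rule that named clusters by the majority of their gated cells was chosen after a first naming was seen. Values in full are for a list of 14 genes (type I, III, V, VI and IV chains, Col12a1, Col14a1, Col15a1, Col18a1), those furthest apart in each class, and other genes picked for their values. Coordinates are from GENCODE vM21 and sequences from RefSeq, both on GRCm38.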

Additional observations from a re-analysis of the deposited data

Results flagged for a closer look

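Barcodes that the cell filter left out also carried collagen UMIs, data that no comparison above used. The 3055 left out in KPCA.A held 17956 UMIs, or 1388 CPM, and the 772 of KPCA.B held 972 UMIs, or 510 CPM. The 1012 of KPCA.C held 11944 UMIs, or 2588 CPM, and the 197 of ascites held 50 UMIs, or 229 CPM.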

How the results depend on the processing

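Of 56 collagen ratios of 2-fold or more, recomputed in 696 alternative values, 611 kept 2-fold in the same direction, 72 fell under it and 13 reversed. The reversed log2 ratios were Col4a1 and Col4a2 in fibroblast-like cells of KPCA.B against KPCA.C (-0.19 and -0.42 in Leiden clusters, -0.20 and -0.49 with stromal mixed cells counted in), and Col1a2 in tumor cells of KPCA.A against KPCA.B (-0.84 in Leiden clusters, -1.61 with the lymphocyte level taken off, -0.54 with mixed tumor cells) and KPCA.B against KPCA.C (0.20, 1.02 and 0.52 in the same settings). Col12a1 in tumor cells was -5.78 and -6.45 for KPCA.A against KPCA.B and KPCA.C with the lymphocyte level taken off, which is 8 UMIs of 1 cell, and Col11a1 was -0.57 for KPCA.A against KPCA.B with the gate at 3 times the markers. With the lymphocyte level taken off, Col1a2 was left at the minimum of 3 counts in both libraries of each pair. Those values reflect only the UMI totals of the classes and give no direction. The cause of the remaining reversals was not tested.

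Shares of collagen UMIs followed the class boundary. For KPCA.A, KPCA.B and KPCA.C, Leiden clusters gave 66.1%, 78.5% and 48.9% to fibroblast-like and 30.8%, 12.6% and 49.1% to tumor cells. Counting in stromal mixed cells gave fibroblast-like cells 54.6%, 62.3% and 39.6%, and counting in mixed tumor cells gave tumor cells 32.0%, 14.0% and 48.7%. The gate at 3 times the markers gave 11.5%, 11.0% and 6.97% to fibroblast-like and 6.27%, 2.43% and 1.44% to tumor cells. A stricter cell filter gave 32.4%, 16.5% and 18.1%, and 15%, 5.31% and 6.73%. A looser filter gave tumor cells 19.1%, 5.75% and 7.65% and KPCA.A fibroblast-like cells 28.3%, and a gate of 4 markers gave 29.4% and 17.6% in KPCA.A. Thinning gave Col3a1 in 17.8%, 2.35% and 24.0% and Col18a1 in 25%, 10.3% and 20.4% of tumor cells.

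In fibroblast-like cells the count of collagen genes apart between KPCA.A and KPCA.C, 0 as reported, was 3 in Leiden clusters, 3 with at least 10 UMIs, 2 with stromal mixed cells, 1 without the 3 top cells and 1 with the lymphocyte level taken off. With no UMI filter and 1 CPM added the counts were 16 for KPCA.A against KPCA.B, 6 for KPCA.A against KPCA.C and 15 for KPCA.B against KPCA.C. The share of all genes apart was not computed under the alternative settings. The counts here and in the paragraphs below therefore cannot be read as particular to the listed genes. The median log2 ratios of KPCA.A against KPCA.B and KPCA.B against KPCA.C were 0.015 and -0.22 in Leiden clusters and 0.16 and -0.26 with stromal mixed cells. In the synthesis and receptor lists, the KPCA.A against KPCA.B count, 9 as reported, was 5 with stromal mixed cells, 5 as a mean over cells and 15 with no filter. The KPCA.A against KPCA.C count, 1 as reported, was 0 in Leiden clusters, 3 with the looser filter and 2 with stromal mixed cells, a gate of 2 markers, at least 10 UMIs or no filter. The KPCA.B against KPCA.C count was 6 in the main setting, where 14.3% of all genes measured differed, and 12 with no filter.

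In tumor cells the median log2 ratio of KPCA.A against KPCA.B was 1.32 and 0.45 with 1 and 20 CPM added, 0.46 with mixed tumor cells and 0.10 with no filter. That of KPCA.A against KPCA.C was -0.32 with 20 CPM added, -0.32 with mixed tumor cells, -1.26 with the gate at 3 times the markers, -0.012 with at least 10 UMIs and 0.0093 with no filter. KPCA.B against KPCA.C gave -0.50 with at least 10 UMIs, where 20 genes were apart, and -0.25 with no filter. As a mean over cells 4 genes were apart between KPCA.A and KPCA.C. Listed synthesis and receptor genes apart between KPCA.B and KPCA.C numbered 19 in the main setting, where 24.3% of all genes measured differed. They numbered 12 with the gate at 3 times the markers.

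The log2 difference of tumor from fibroblast-like cells in Col1a1 per Col1a2 was 2.42, 1.43 and 3.31 in Leiden clusters, 0.72, 0.27 and 2.03 with mixed tumor cells, 3.68 in KPCA.C with the gate at 3 times the markers, and in KPCA.A 1.89 with the stricter filter and 2.60 in cells without fibroblast marker UMIs. For Col3a1 per Col1a2 it was 4.41 and 1.5 in Leiden clusters of KPCA.A and KPCA.B, 4.48 and 1.64 with the gate at 3 times the markers, 2.50, 0.0062 and 2.71 with mixed tumor cells in KPCA.A, KPCA.B and KPCA.C, 3.91 in KPCA.A with the stricter filter, and 4.71 and 3.64 in KPCA.A and KPCA.C in cells without fibroblast marker UMIs. In endothelial-like cells the count apart was 0 with the gate at 3 times the markers, the looser filter, a mean over cells, median-of-ratios scaling or without the 3 top cells, 4 in Leiden clusters, 2 with at least 10 UMIs and 12 with no filter, and the median log2 ratio was 0.048 with that gate, -0.14 with at least 10 UMIs, 0.38 with no filter and -0.036 without the 3 top cells.

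Settings with mixed cells counted in, without shared barcodes, without the 3 top cells and without fibroblast marker UMIs were added after seeing the data. Fibroblast-like comparisons with KPCA.B had no value with a gate of 4 markers, the gate at 3 times the markers or the stricter filter, where 29, 22 and 25 cells remained. Those comparisons also had no value without the 3 top cells, which left KPCA.B too few cells. Levels below about 1 CPM rest on few UMIs, and depth limits them. No paired analysis was possible because each group is 1 library. The labels do not tell the spread between mice.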

Other observations

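Within the fibroblast-like class, cells with a UMI of Pi16 and none of Cthrc1, genes known from progenitor-type fibroblasts and from activated fibroblasts in turn, numbered 12, 5 and 10 in KPCA.A, KPCA.B and KPCA.C. They carried 215, 1222 and 241 CPM of Col14a1 and 440, 3665 and 1057 CPM of Col4a1. Cells with Cthrc1 and without Pi16, 21, 1 and 19, carried 43.3, 672 and 19.5 CPM of Col14a1, 6374, 8157 and 6176 CPM of Col1a1 and 305, 240 and 282 CPM of Col12a1. The mixed fibroblast and pericyte cells, 20, 1 and 21, carried 32292, 48492 and 37444 CPM of collagen in all, beside 35716, 52346 and 34208 CPM in the cells with Cthrc1 and without Pi16, with Col8a1 at 710, 210 and 86.1 CPM and Col15a1 at 948, 3068 and 982 CPM. KPCA.B rests on 5 cells or fewer in each of these sets.

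The neutrophil-like class of KPCA.A had 4407 CPM of collagen, but 3 of its 199 cells held 97.2% of the 1441 UMIs, 990, 347 and 64 each. Fibroblast markers summed to 713 CPM in that class.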
